A study of Caenorhabditis elegans with 12 samples.

Results

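The small RNAs recovered with the Argonaute protein CSR-1 were compared with the small RNAs of input extracts of the same strain, over every feature that carries a WormBase gene identifier. The members were all 20134 entries of the count table whose name begins with WBGene, out of 75393 features in all; the other 55259 were genomic intervals, used here only as background. Small RNA was sequenced from whole Caenorhabditis elegans animals staged at the fourth larval stage (L4) and grown at 15 °C. Immunoprecipitation (IP) was done with beads against the FLAG tag, and the input was taken from the extract without antibody. The CSR-1 IP and CSR-1 input groups came from animals of genotype 1xFLAG::CSR-1, with 3 libraries each, lettered A, B and C. A further WAGO-1 P3G IP group and WAGO-1 P3G input group, also of 3 libraries each, came from animals that carry WAGO-1::FLAG with P3G and also WAGO-3 with P2G A3E, and served to set the scale of the spread and as a second bait. Groups follow the titles, which match the antibody entries and library names; the free-text descriptions go against the title for 9 of the 12 libraries, among them the 3 CSR-1 inputs, which are described as precipitated. An IP from animals with no FLAG tag was not analysed here.

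Argonaute proteins hold short RNAs that guide them to matching transcripts. In C. elegans, RNA-dependent RNA polymerases copy target transcripts into antisense small RNAs, and CSR-1 is known to bind those made on genes expressed in the germline. CSR-1 is essential and is known for roles in chromosome segregation and in the tuning of maternal and germline transcripts, while the WAGO Argonautes, WAGO-1 among them, are known for silencing. A gene's value here is therefore the number of small RNA reads counted to it, which is not the level of its messenger RNA.

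The identifiers were not paired with gene symbols in the table or in the gene reference, and 0 were matched. Known germline and somatic genes were therefore not analysed by name, and the identity of the recovered genes is given only as 2 identifiers that rose and 2 that fell. Gene length is equally unknown, so levels are counts per 1000000 counted reads (CPM) and are compared between libraries. Where genes are ranked on them, the rank is one of reads and not of reads per length.

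Reads counted to a feature numbered 4908321, 2405005 and 3429786 in CSR-1 IPs A, B and C, and 404835, 533232 and 373033 in CSR-1 inputs A, B and C. Every IP library was thus deeper than every input library, and the inputs set the precision of most values below. Input RNA also passed through a small RNA enrichment kit that the IP RNA did not, so this step and the IP itself cannot be told apart. The labels do not say whether the letters mark separate cultures, and p-values measure the spread between these libraries.

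Gene identifiers took up most of the counted reads in the CSR-1 IPs. They held 97.1%, 95.8% and 96.0% of counted reads in CSR-1 IPs A, B and C, and 85.7%, 83.7% and 84.4% in CSR-1 inputs A, B and C. The groups did not overlap, at 96.3% ± 0.673 in the IPs and 84.6% ± 1.01 in the inputs (SD, n = 3 each, exact 2-sided permutation p = 0.1). Of all reads in the table, those on no feature included, the share was 72.7% ± 4.43 in the IPs and 36.4% ± 2.82 in the inputs (SD, n = 3 each, exact 2-sided permutation p = 0.1). For 3 libraries against 3 this p is the smallest possible, and it stayed at 0.1 after Benjamini-Hochberg adjustment over the 6 library measures tested here and in the next paragraph.

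The IP drew on fewer genes but spread its reads more evenly over the leading ones. With every library thinned to 334088 counted reads, 9168, 9200 and 9239 identifiers had at least 1 read in CSR-1 IPs A, B and C, against 10989, 10829 and 10951 in CSR-1 inputs A, B and C. Each IP library thus lay below each input library. The smallest set of identifiers that held 90% of the identifiers' reads numbered 3260 ± 71.2 in the IPs and 4000 ± 31.5 in the inputs (SD, n = 3 each). At 50% of those reads the order was the opposite, with 530.3 ± 7.51 identifiers in the IPs and 408.3 ± 21.1 in the inputs (SD, n = 3 each). The 10 leading identifiers of each library held 5.09% ± 0.0841 of identifier reads in the IPs and 8.07% ± 0.449 in the inputs (SD, n = 3 each). None of these measures overlapped between the groups, and each gave an exact 2-sided permutation p of 0.1. Reads on the tail were therefore scarcer in the IP while the top was flatter. The thinned WAGO-1 P3G IPs also had fewer identifiers with a read, 10779 to 10898 against 11593 to 11695 in their inputs. Their 10 leading identifiers held 18.3% to 18.4% of identifier reads, against 10.3% to 11.1% in their inputs. Fewer identifiers were thus seen with both baits, and the flatter top with CSR-1 only.

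**Figure D1:**
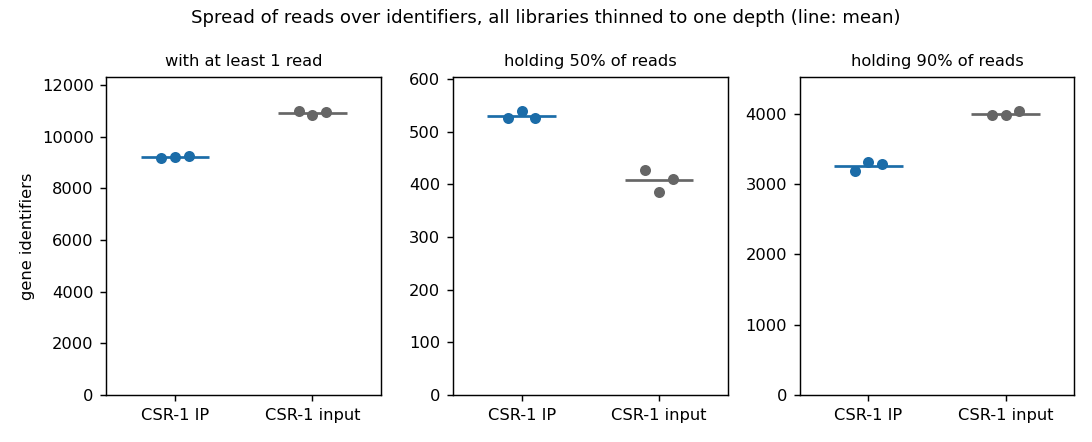
Number of gene identifiers with at least 1 read, and number that together hold 50% and 90% of identifier reads, in each library thinned to 334088 counted reads (points are replicates A, B and C from left to right, lines are means). CSR-1 IPs lie below CSR-1 inputs in the left and right panels and above them in the middle panel.

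Of the 20134 identifiers, 15897 had at least 1 count in the 6 CSR-1 libraries and 4237 had none. The filter on low counts kept 9536 for testing, of which 7826 reached its cutoff of 6.81 CPM in at least 3 of the 6 CSR-1 libraries and 1710 did not and were kept because of WAGO-1 P3G libraries. Among those tested, 45 were over the cutoff in all 3 CSR-1 IPs and in no CSR-1 input, and 525 the other way round. Those members had to differ, so counts over the tested identifiers do not describe all 20134. The 10598 that were not tested held 0.340% to 0.407% of counted reads in the IPs and 0.728% to 0.926% in the inputs.

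Recovery with CSR-1 moved identifiers in both directions, and most of those tested moved. By edgeR's quasi-likelihood test with Benjamini-Hochberg adjustment, 4014 identifiers were higher in the CSR-1 IPs, 2671 were lower and 2851 were not called. That is 42.1% of tested identifiers higher and 28.0% lower, beside 37.5% higher and 33.6% lower for all 10822 features tested. Among the 1286 genomic intervals in the same fit, 3.81% were higher and 74.8% lower. Of the identifiers called higher, 3405 had no overlap in CPM between the IP and input libraries, and of those called lower 2465 had none. Over all tested features, called or not, the 3 IP values lay above the 3 input values for 32.1% and below them for 37.6%.

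The size of the change fell into a pair of groups. Tested identifiers were most frequent between log2 1.5 and 2, with 1255 of them, and had a second peak between log2 -2 and -1.5, with 1048. Between these peaks the frequency dropped to 733 identifiers from log2 -0.5 to 0. The dip was deeper among the 5618 identifiers averaging 20 CPM or more across the 6 CSR-1 libraries. Of these, 1097 lay from 1.5 to 2, 265 from -0.5 to 0 and 512 from -2 to -1.5. That average is taken over the libraries compared, so a high value in either group alone can admit an identifier. The filter can thus deepen the dip by itself, and the deeper dip is no separate sign of a pair of groups. Intervals had 1 peak, between log2 -2 and -1.5, where the lower group of identifiers also lay.

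**Figure D2:**
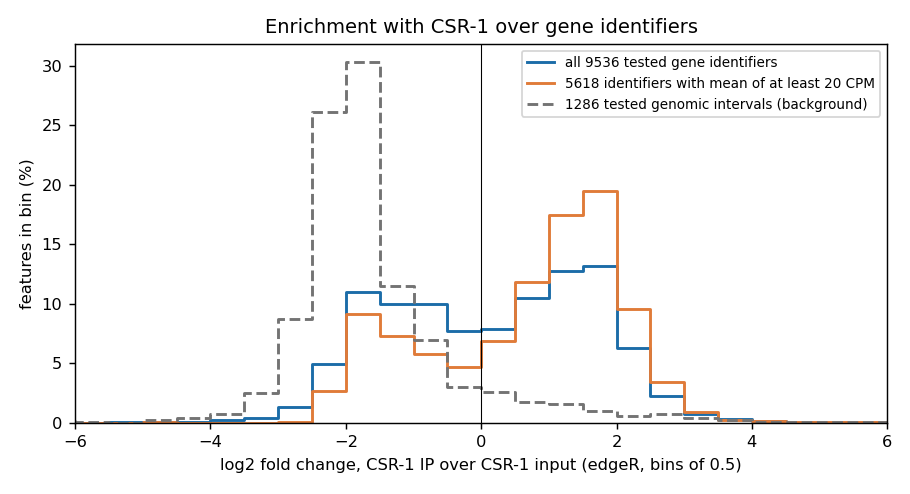
Share of features (vertical axis, %) by log2 fold change of CSR-1 IP over CSR-1 input in bins of 0.5 (horizontal axis), for all 9536 tested gene identifiers, for the 5618 with a mean of at least 20 CPM, and for 1286 tested genomic intervals. Identifiers form a peak on each side of 0 and intervals a peak below 0, and 6 identifiers lie outside the range drawn.

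Changes of 2-fold to 4-fold made up the larger part of the calls. Of the 4014 higher identifiers, 701 rose by less than 2-fold, 2403 by 2-fold to 4-fold, 810 by 4-fold to 8-fold, 78 by 8-fold to 16-fold and 22 by more. The 2671 lower ones divided much the same way, into 384, 1661, 549, 49 and 28. The median log2 was 1.56 for identifiers called higher and -1.61 for those called lower. Tested against a 2-fold change with glmTreat, 2449 identifiers were past it upward and 1450 downward, which is 25.7% and 15.2% of those tested, beside 22.9% and 20.8% of all features. Steep changes in either direction rested on few input or IP reads. The 22 identifiers that rose most had a median of 147 CPM in the IPs and 10.8 CPM in the inputs, and the 28 that fell most had 0.207 CPM in the IPs and 11.8 CPM in the inputs. With 0 counts in their 3 inputs, 3 of the identifiers called higher have only a lower bound for their rise, and 5 of those called lower had 0 counts in the 3 IPs.

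The direction of an IP against an input is relative to how libraries are scaled. The composition factors (TMM) placed the median tested identifier at log2 0.27, while library totals alone placed it at -0.17 and gave 3237 identifiers higher and 3374 lower. The share of calls that were higher was then 49.0% in place of 60.0%. All 3237 had also been called higher with TMM, and none of the calls turned round. When the fit was limited to features averaging 20 CPM or more, the median of those identifiers moved to 0.26, against 1.06 for the same 5618 in the fit on all features. In that setting 56.3% of calls were higher in place of 71.7%, and 28 identifiers called higher turned to lower. The scaling made fitted folds 1.34 times as large as ratios of mean CPM (median), and 19 identifiers called higher had a lower mean CPM in the IPs.

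The named identifiers were chosen by size among called identifiers with a mean of at least 20 CPM and no overlap between the groups. Larger rises, up to log2 8.85, lay outside that set. Within it the largest rise was that of WBGene00013553. It had 718, 696 and 664 CPM in CSR-1 IPs A, B and C, against 24.7, 15.0 and 8.04 CPM in CSR-1 inputs A, B and C. All IP values lay far above all input values, and the inputs held 10, 8 and 3 counts. The fitted change was log2 5.85 ± 0.20 (SE, n = 3 each, edgeR adjusted p = 1.35e-17). Fitted on the 6 CSR-1 libraries alone, it was log2 5.46 (edgeR adjusted p = 2.73e-10). The ratio of input over IP, scaled to counted reads, was 0.0230 (95% exact counting interval 0.0142 to 0.0352). Counting error on so few input counts exceeds the SE given. WBGene00185088 was next, with 1082, 1274 and 1273 CPM in the IPs against 34.6, 39.4 and 16.1 CPM in the inputs. Its change was log2 5.69 ± 0.16 (SE, n = 3 each, edgeR adjusted p = 2.68e-18). Its ratio of input over IP was 0.0264 (95% exact counting interval 0.0189 to 0.0358), and counting error again exceeds the SE. Relative to the mean, the input libraries, on 3 to 21 counts each, varied more than the IP libraries, with a coefficient of variation of 3.90% in the IPs and 52.6% in the inputs for WBGene00013553, and of 9.14% in the IPs and 41.0% in the inputs for WBGene00185088.

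WBGene00008227 showed the largest fall. It had 0, 0 and 0.292 CPM in CSR-1 IPs A, B and C, against 66.7, 48.8 and 69.7 CPM in CSR-1 inputs A, B and C. A single read in 1 of the 3 IP libraries stood against 79 in the inputs. The ratio of input over IP, scaled to counted reads, was 647 (95% exact counting interval 113 to 25887), and the fitted log2 was -8.40 (edgeR adjusted p = 1.17e-12). WBGene00012988 had 0.204, 0.416 and 0.583 CPM in the IPs against 39.5, 50.6 and 50.9 CPM in the inputs. It fell by 6.40 ± 0.53 on the log2 scale (SE, n = 3 each, edgeR adjusted p = 8.78e-11), from 62 input reads and 4 IP reads. Its ratio of input over IP was 127 (95% exact counting interval 47.2 to 481), and counting error on those reads exceeds the SE. The intervals cover counting error only. The sizes moved by more than 1.5-fold with the processing while the calls held: thinned libraries gave log2 4.91 for WBGene00013553, 5.10 for WBGene00185088, -7.31 for WBGene00008227 and -5.21 for WBGene00012988, and without CSR-1 IP C the value of WBGene00008227 was -10.11.

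**Figure D3:**
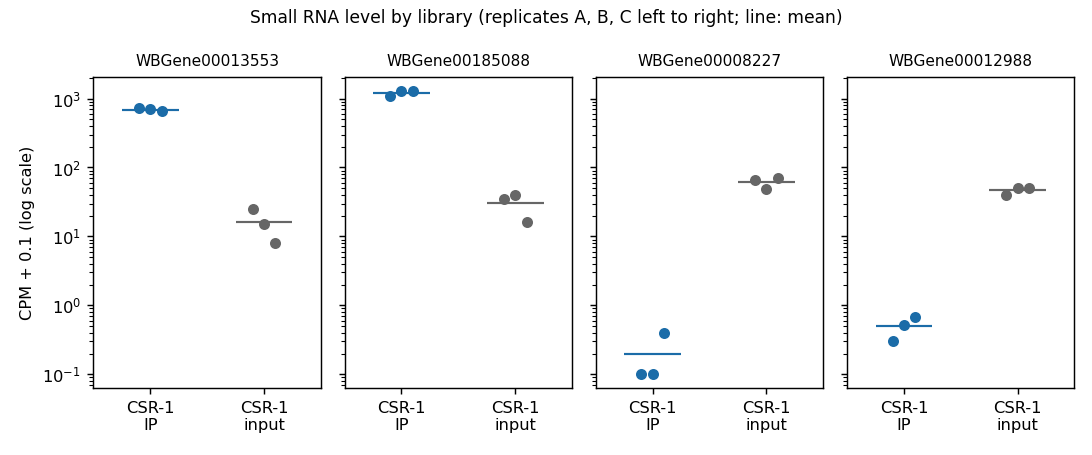
Level of the 4 named identifiers in each CSR-1 library, as CPM + 0.1 on a log scale (points are replicates A, B and C from left to right, lines are means). WBGene00013553 and WBGene00185088 lie higher in all 3 IPs than in any input, and WBGene00008227 and WBGene00012988 lower.

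Different genes led the IPs and the inputs. The 6 identifiers with the most reads in the CSR-1 IPs had means of 4223 to 6830 CPM there and 916 to 2176 CPM in the inputs. All 6 were called higher, with log2 1.901 to 3.19 (edgeR adjusted p of at most 1.23e-14). The first of them had 7295, 6282 and 6914 CPM in CSR-1 IPs A, B and C, against 1677, 1594 and 1710 CPM in CSR-1 inputs A, B and C, a log2 of 2.47 ± 0.10 (SE, n = 3 each). The 6 identifiers with the most reads in the CSR-1 inputs, a set added after values were seen, had 1342 to 2036 CPM in the IPs and 6363 to 8850 CPM in the inputs. All 6 were called lower, with log2 -1.94 to -1.71 (edgeR adjusted p of at most 2.02e-12). The first of these had 1547, 2269 and 2293 CPM in the IPs, against 8426, 9426 and 8699 CPM in the inputs. Both sets were ranked on libraries of the comparison itself, so their directions describe the libraries and test nothing.

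Identifiers called higher accounted for 79.5% ± 2.40 of CSR-1 IP reads and 31.4% ± 1.15 of CSR-1 input reads, both out of counted reads (SD, n = 3 each). Those called lower held 12.2% ± 1.51 in the IPs and 46.7% ± 0.288 in the inputs (SD, n = 3 each). The calls come from the same libraries, so these shares describe their weight.

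Abundance was read from libraries outside the comparison, the WAGO-1 P3G inputs, whose strain differs in genotype. By this measure the median enrichment with CSR-1 was highest for genes of middle abundance and lowest at both ends. The median log2 of CSR-1 IP over input was -0.95 for the 678 tested identifiers under 5 CPM in those inputs and -0.10 for the 1695 between 10 and 20 CPM. It reached 0.77 for the 1710 between 50 and 100 CPM and 0.74 for the 897 between 100 and 200 CPM. For the 413 between 200 and 500 CPM it was 0.25, and for the 215 identifiers above 500 CPM it was -1.09. The share called higher was 17.3% in the lowest class, 55.7% between 100 and 200 CPM and 23.3% above 500 CPM. The share called lower was 35.1%, 30.2% and 70.7% in those classes. Quartiles were wide in each class, from -0.77 to 1.57 between 50 and 100 CPM, so both groups of genes were present at middle abundance. Identifiers under the 6.81 CPM cutoff in those inputs could pass the filter mainly through another group of libraries, so the lowest class holds selected members. The pattern of the median at the top end depends on the libraries that set abundance. A ranking by the mean over the 6 CSR-1 libraries was also made, in which a high IP value itself raises the class. By it the median log2 was 1.14 between 50 and 100 CPM and 1.39 between 100 and 200 CPM. The 631 identifiers between 200 and 500 CPM had a median of 1.63, with 74.0% called higher and 24.4% lower. The 301 above 500 CPM had a median of 1.54, with 58.8% called higher and 40.2% lower. The share called higher dropped there too, while the median stayed above that of the middle classes.

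**Figure D4:**
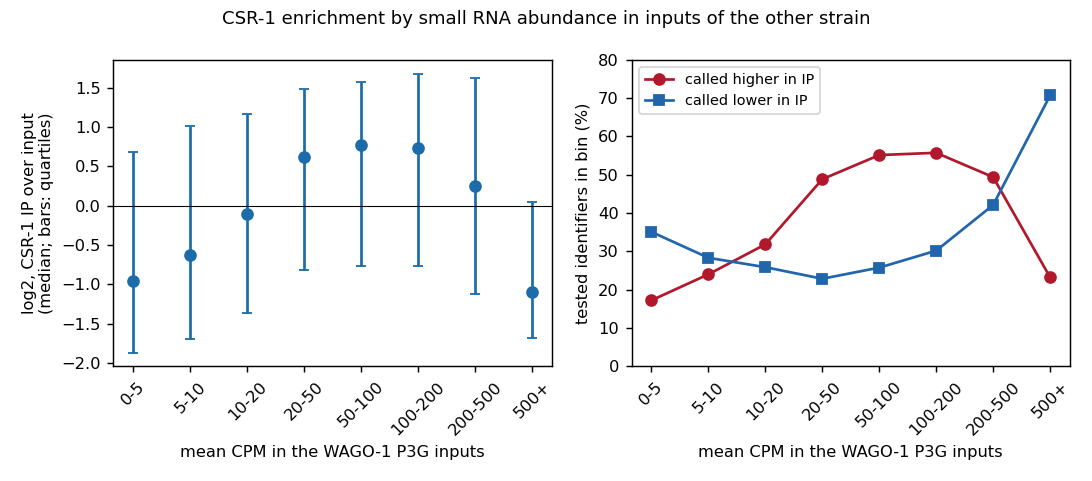
CSR-1 enrichment of tested identifiers by their mean CPM in the WAGO-1 P3G inputs. Left, median log2 of CSR-1 IP over input with quartiles as bars, which is highest at 0.77 between 50 and 100 CPM and -1.09 above 500 CPM. Right, share called higher and share called lower (%).

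Replicates of the IP lay close together, with replicate A standing apart. Over the 5618 identifiers averaging 20 CPM or more, the SD of the log2 difference between IP libraries was 0.48 for A and B, 0.39 for A and C and 0.22 for B and C. Between input libraries it was 0.59, 0.57 and 0.49 for the same pairs. The IP and the input of one letter differed by more, with an SD of 1.53 for A, 1.41 for B and 1.42 for C. More than 2-fold separated 4.54%, 2.47% and 0.392% of these identifiers in IP pairs A and B, A and C, and B and C.

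Per gene, the coefficient of variation over 3 libraries had a median of 12.5% in the IPs and 18.5% in the inputs. The counts per library behind it had medians of 247 in the IPs and 23.7 in the inputs, for which counting error alone gives 6.36% and 20.6%. Thinned to one depth the medians were 20.5% in the IPs and 20.5% in the inputs, where counting error alone gives 20.9% and 23.4%, so at that depth the measure cannot show whether the spread of the groups differs. The common variation beyond counting, as edgeR's biological coefficient of variation, was 13.7% in the IPs and 12.5% in the inputs, beside 3.94% for WAGO-1 P3G IPs and 5.996% for WAGO-1 P3G inputs. After thinning the order of the CSR-1 groups turned, to 10.3% in the IPs and 12.3% in the inputs. The main fit pooled the variation of all 12 libraries, so the lower WAGO-1 P3G variation entered the SEs and p-values of the CSR-1 comparison. Those can therefore be too small for the CSR-1 libraries. With the 6 CSR-1 libraries alone, 3210 identifiers were called higher and 2473 lower, of 7826 tested. The main fit had 4014 higher and 2671 lower of 9536 tested. As a share of those tested, higher calls were thus slightly fewer with the CSR-1 libraries alone, and lower calls were more. That fit also had fewer libraries and other tested identifiers, so the counts do not show what pooling the variation did to the calls.

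The directions carried over to replicates not used to make the calls, an analysis chosen after the values were seen. Calls were made without the IP and input of one letter, and the log2 ratio of that pair, scaled by the factors of the full fit, was then read. With A, B or C left out, 3948, 4106 and 3867 identifiers were called higher, beside calls for 35.4%, 33.4% and 34.6% of all features in those fits, intervals included. Of these identifiers, 98.9%, 98.0% and 98.5% were also higher in the unused pair, beside 53.7%, 49.8% and 53.7% of all tested identifiers. Of the 2390, 2058 and 2258 called lower, 96.3%, 98.2% and 97.1% were also lower there, beside 46.3%, 50.2% and 46.3% of all tested identifiers. Lower calls made up 29.6%, 24.2% and 28.2% of all features in those fits. The letters only say which IP and input were left out together. The factors of the full fit drew on the left-out libraries too, and the kit step differs between IP and input in every pair. The shares therefore show only that the directions repeat between these libraries. The median log2 of the identifiers called higher was 1.68, 1.37 and 1.49 in unused pairs A, B and C, and that of the identifiers called lower was -1.55, -1.62 and -1.52.

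Most identifiers higher with CSR-1 were not higher with the second bait. Each bait was compared with its own input, so no library is shared. Bait, position of the tag and genotype differ together between the strains and cannot be told apart. The difference between the log2 enrichments, CSR-1 minus WAGO-1 P3G, was called higher for 4249 identifiers and lower for 2689 by edgeR's quasi-likelihood test, which is 44.6% and 28.2% of those tested, beside 40.0% and 33.9% of all features. The CSR-1 value is a term of this difference, so its overlap with the CSR-1 calls is partly fixed and supports nothing. As a description, 3270 of the 4014 identifiers called higher with CSR-1 also had the higher enrichment by that test, 44 had the lower one and 700 were not called.

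In the WAGO-1 P3G comparison, 34.1% of all features were called higher and 33.4% lower. Of the 4014 identifiers higher with CSR-1, 2039 were lower with WAGO-1 P3G, 484 higher and 1491 not called. The 484 that were higher with both make up 12.1% of the CSR-1 list and 16.2% of the WAGO-1 P3G list. Of the 2671 lower with CSR-1, 1608 were higher with WAGO-1 P3G, which is 60.2% of the CSR-1 list and 53.8% of the WAGO-1 P3G list, 599 were lower with both and 464 were not called. Across the 9536 tested identifiers the log2 values of the baits had a Pearson correlation of -0.29, given as a description, since the points share the 12 libraries and their depths.

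The classes differed in how many reads they held. The 2039 identifiers higher with CSR-1 and lower with WAGO-1 P3G accounted for 58.9% ± 1.75 of counted reads in CSR-1 IPs and 21.2% ± 0.615 in the CSR-1 inputs (SD, n = 3 each). In WAGO-1 P3G libraries they held 4.94% ± 0.0468 of IP reads and 18.0% ± 0.712 of input reads (SD, n = 3 each). Their share of input reads was higher in the CSR-1 strain, with no overlap between the strains. The 1608 identifiers with the reverse calls held 9.68% ± 1.13 of CSR-1 IP reads against 38.6% ± 0.519 of CSR-1 input reads, and 61.9% ± 0.0400 of WAGO-1 P3G IP reads against 35.5% ± 0.890 of WAGO-1 P3G input reads (SD, n = 3 each). The 599 lower with both baits held 1.92% ± 0.316 of CSR-1 IP reads against 5.87% ± 0.737 of CSR-1 input reads, and 1.24% ± 0.0215 of WAGO-1 P3G IP reads against 14.4% ± 0.199 of WAGO-1 P3G input reads (SD, n = 3 each). The classes were made from the same libraries, so these shares are a description.

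**Figure D5:**
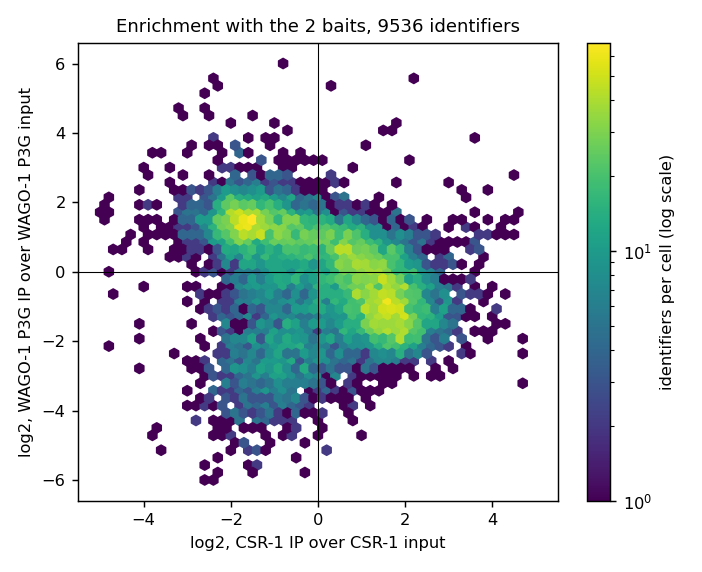
Log2 of CSR-1 IP over CSR-1 input (horizontal) against log2 of WAGO-1 P3G IP over WAGO-1 P3G input (vertical) for tested gene identifiers, coloured by their number per cell on a log scale. Dense clouds lie at the upper left and the lower right, with a looser group at the lower left, and 40 identifiers lie outside the range drawn.

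The named identifiers were chosen for their CSR-1 values, so their levels with the other bait are given as a description. WBGene00013553 had 11.9, 10.00 and 9.80 CPM in WAGO-1 P3G IPs A, B and C, against 23.5, 15.0 and 22.5 CPM in WAGO-1 P3G inputs A, B and C. All IP values lay below all input values, but the log2 of -0.35 ± 0.32 was not called (SE, n = 3 each, edgeR adjusted p = 0.346). WBGene00185088 had 49.7, 50.1 and 48.0 CPM in the WAGO-1 P3G IPs against 35.3, 38.9 and 25.4 CPM in the WAGO-1 P3G inputs, and rose by log2 1.17 ± 0.22 (SE, n = 3 each, edgeR adjusted p = 5.32e-05). It was thus recovered with both baits, with the larger rise for CSR-1. WBGene00012988 fell with WAGO-1 P3G too, by 4.16 ± 0.79 on the log2 scale, on 9 IP reads and 11 input reads, 1 of the 3 inputs being at 0, and its difference between the baits was not called (log2 -2.25 ± 1.08, edgeR adjusted p = 0.0647).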

How the data were processed

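The deposited table holds raw counts, not normalized, for 20134 gene identifiers, 55259 intervals and 5 summary entries, as read from the file. HTSeq 0.11.2, cutadapt 2.3, Bowtie 1.2.3, SAMtools 1.9 and build ce11 are named per the submitters' processing notes, with no role or order. Annotation, strand setting and treatment of multiply aligned reads were not stated in any source used, so sense and antisense reads, overlapping genes and near-identical copies cannot be told apart. Per the labels, inputs were enriched for small RNA from 500 ng total RNA, all RNA was treated with 5' polyphosphatase, and 50 cycles were read.

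Counts were fitted by the quasi-likelihood F test of edgeR 4.0.16 (R 4.3.3) after filterByExpr and TMM on all 12 libraries, 8 residual degrees of freedom, with Benjamini-Hochberg adjustment over all 10822 features tested across identifiers and intervals; called means adjusted p under 0.05. The SE is the size of log2 divided by the square root of F, an approximation. On few counts it can lie below counting error, as for WBGene00013553, WBGene00185088 and WBGene00012988, and is then too small. Summary entries stayed out. Held-out ratios used a pseudocount of 0.5 counts. The script was tested on simulated data. Members, lists and comparisons were chosen with earlier results of these data known. The rule for named genes took the called identifiers with an average of 20 CPM or more across the 6 CSR-1 libraries, no overlap of groups and the largest and smallest log2. It was kept to 2 and 2, and its parts on gene symbols and prepared gene lists were not used, because 0 identifiers carry a symbol. Alternatives were other scalings, filters and samples, a replicate block, thinning, DESeq2 1.42.0, glmTreat and leaving out libraries.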

Additional observations from a re-analysis of the deposited data

Results flagged for a closer look

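Enrichment differed between the baits in the test of the difference itself. The CSR-1 minus WAGO-1 P3G difference was higher for 4249 identifiers and lower for 2689, or 44.6% and 28.2% of those tested, beside 40.0% and 33.9% of all 10822 features. Of the named ones, it was log2 6.20 ± 0.51 for WBGene00013553 and 4.52 ± 0.37 for WBGene00185088 (SE, edgeR, n = 3 per group). For WBGene00008227 it was log2 -6.29 ± 1.92 (SE, edgeR adjusted p = 0.00508, n = 3 per group), but with WAGO-1 P3G it had 3 reads in all IPs and 1 in all inputs, so the enrichment there was not measured and this value does not show that the baits differ. These identifiers were chosen for their CSR-1 log2, which is a term of the difference, so the differences describe them and are no independent test.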

How the results depend on the processing

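The median log2 of tested identifiers moved with the scaling and the filter: 0.15 with median-of-ratios factors, -0.17 with library totals alone, 0.012 with identifiers alone, 0.14 with DESeq2, 0.080 with all libraries thinned, 0 with no filter, and 0.22 to 0.40 with libraries left out. With no filter 18727 identifiers were tested, some with 0 counts in all 6 CSR-1 libraries, so that median is no shift of the same identifiers. Identifiers called higher numbered 2417 of 5618 tested with the 20 CPM filter, 2215 of 6155 thinned and 2449 of 9536 past 2-fold. Those called lower numbered 1631 of 18727 with no filter and 1450 of 9536 past 2-fold. The difference between the baits had 2636 higher of 5618 with the 20 CPM filter and 2516 of 6155 thinned. The main fit tested 9536, so counts under another filter or depth differ partly because other identifiers were tested. The gain in identifier share was 36.3 percentage points over all reads, against 11.7 over counted reads. With 7666 to 11035 identifiers tested, leaving out 1 library, or the CSR-1 IP and input of one letter, gave 3381 to 4300 higher and 2058 to 2539 lower. These lie within 1.5 times the counts reported. The 6 CSR-1 libraries alone gave fewer higher calls than any of these, with 3210 higher and 2473 lower of 7826 tested. That fit kept 3210 of the 4014 higher calls and 2159 of the 2671 lower calls. The 4 named identifiers kept direction and call in all 25 alternatives each, while their log2 ranged from 4.91 to 6.42 for WBGene00013553, 4.90 to 6.17 for WBGene00185088, -10.12 to -7.31 for WBGene00008227 and -7.12 to -5.21 for WBGene00012988. Without CSR-1 IP C, which holds its 1 read, WBGene00008227 was at -10.11. Same-lettered CSR-1 IP and input libraries deviated together for A and B (r = 0.50 and 0.37) and less for C (0.086). Different letters gave -0.40 and -0.17 for IP A, -0.47 and 0.17 for IP B, and -0.29 and 0.24 for IP C. These values did not settle whether the letters mark pairs, and the main fit did not use them as pairs. A replicate block gave 4079 higher and 2759 lower. The input libraries' 373033 to 533232 counted reads limit the precision of low genes.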
